A study of Homo sapiens with 2 samples.

Results

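The aryl hydrocarbon receptor (AHR) pathway was followed through the FAIRE-seq peak lists of HepG2 cells by 8 genes: AHR, ARNT, AHRR, CYP1A1, CYP1A2, CYP1B1, TIPARP and NQO1. Every row of the 3 deposited peak lists that named one of these genes as its nearest gene was taken. This gave 11 of 56159 peaks. FAIRE (formaldehyde-assisted isolation of regulatory elements) enriches DNA that is poorly crosslinked to protein, so a peak marks a site of accessible chromatin. HepG2 is an established human liver cancer cell line. The control library came from HepG2 cells transduced with lentiviral particles expressing a scrambled small hairpin RNA. The NR2E3-depleted library came from HepG2 cells transduced in the same way with a small hairpin RNA targeting the orphan nuclear receptor NR2E3. The study worked with more than one NR2E3 hairpin line, and 1 of them (KO II) was used for the depleted library. The lists are common peaks (14368, called in both libraries), control-specific peaks (16236) and depleted-specific peaks (25555).

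Each group had 1 library, so no difference below has a replicate check and no test between the conditions was made. Peak scores were whole multiples of 1 step per list, 0.407 in the common and control-specific lists and 0.507 in the depleted-specific list, and a score was turned into tags by dividing by that step. Common peaks carry control-scale scores only. Tag numbers carry exact 95% Poisson intervals, which cover counting error only. If both libraries share a scale, the depleted library was sequenced to 0.802 times the depth of the control library. The lowest listed peak held 8 tags in the depleted-specific list and 10 tags in each of the others, so a site below these heights would not be listed. As a check of the liver identity of the cells, 9 of 13 hepatocyte marker genes had a promoter peak and 12 of 13 had any peak. By list, 8 had a common, 2 a control-specific and 0 a depleted-specific promoter peak, and that of TF was control-specific alone. TTR had no peak, and ALB, AFP and FGB had peaks outside promoters alone. None of the 4 blood cell, 3 fibroblast and 3 endothelial markers had a promoter peak. A peak of any class was listed at 3 of the blood cell, 2 of the fibroblast and 2 of the endothelial markers. Over all protein-coding genes, 28.3% had a promoter peak and 52% had any peak. The check therefore rests on the promoter peaks, since peaks of any class were also listed at most markers of the other cell types. The lists hold no measure of NR2E3 RNA or protein, so the depletion itself could not be checked in them.

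AHR is a ligand-activated transcription factor that is kept in the cytosol by chaperones and enters the nucleus when it binds dioxins, polycyclic hydrocarbons or tryptophan metabolites. There it pairs with ARNT and binds xenobiotic response elements (XREs), whose core is GCGTG. In liver the pathway is best known for inducing the cytochrome P450 genes CYP1A1 and CYP1A2. AHRR and TIPARP are induced by AHR and restrain it. NQO1 is a quinone reductase that answers to AHR and to the oxidative stress factor NFE2L2. The study gives NR2E3 as a regulator of AHR expression from earlier work, in which AHR expression fell when NR2E3 was depleted. The lists show where accessible chromatin was called at these genes in the control and the NR2E3-depleted library. They hold no measure of AHR expression, so its direction could not be checked in them.

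The 11 peaks fell on 4 of the 8 genes. AHR had 6, NQO1 had 3, and ARNT and TIPARP had 1 each. AHRR, CYP1A1, CYP1A2 and CYP1B1 had no row in any list. Over all 20007 protein-coding genes, 52% had at least 1 peak. A common peak was listed at 4 members, against 26.9% of these genes. The lists divided the members by gene. ARNT and TIPARP had common promoter peaks alone, AHR had common and depleted-specific distal peaks, and NQO1 had a common peak in its first intron and control-specific peaks upstream. No member had a promoter peak in either specific list, against 3.69% of protein-coding genes for the control-specific list and 11.8% for the depleted-specific list.

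**Figure D1:**
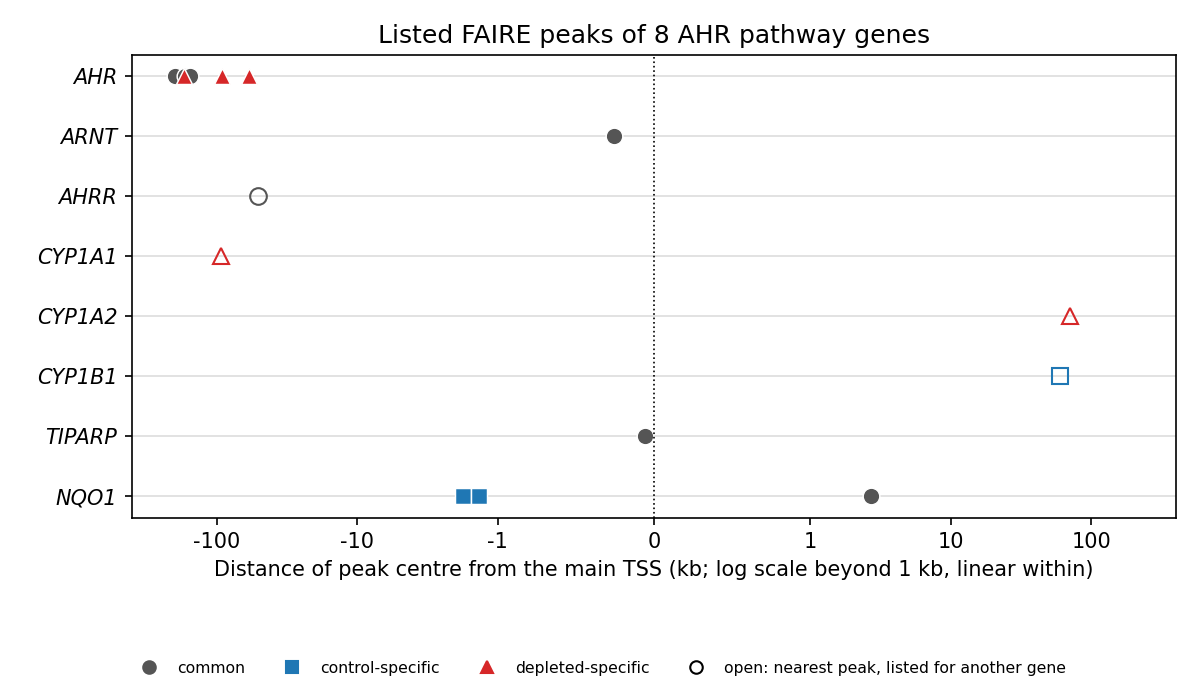
Position of each listed peak (x axis, distance of the peak centre from the main transcription start site in kb, log scale beyond 1 kb) for the 8 genes (rows), with filled symbols for the gene's own peaks by list and open symbols for the nearest peak listed for another gene. The 6 AHR peaks lie far upstream, ARNT and TIPARP carry a peak at the start site, and the genes AHRR, CYP1A1, CYP1A2 and CYP1B1 have no peak of their own.

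Not all peaks are shown by sequence, and those of NQO1 are left out. The sequences below come from some of the receptor's distal sites and from the promoters of its partner and of a feedback gene. Each is read from the hg38 plus strand, 5′ to 3′. Capitals mark letters that match an XRE core (GCGTG), an Sp1 motif (GGGCGG), an antioxidant response element (TGACNNNGC), an AP-1 motif (TGANTCA) or an NFY motif (CCAAT) on either strand. The TIPARP sequence stops at the start site, before the untranslated exon.
AHR, common peak with an XRE core (chr7:17099518-17099817): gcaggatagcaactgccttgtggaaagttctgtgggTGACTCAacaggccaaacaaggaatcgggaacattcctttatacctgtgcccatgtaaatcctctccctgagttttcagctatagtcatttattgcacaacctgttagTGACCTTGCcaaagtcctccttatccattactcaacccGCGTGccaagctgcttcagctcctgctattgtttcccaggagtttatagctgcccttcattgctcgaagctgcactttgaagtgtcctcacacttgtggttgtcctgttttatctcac
AHR, depleted-specific peak at -92218 bp (chr7:17206285-17206584): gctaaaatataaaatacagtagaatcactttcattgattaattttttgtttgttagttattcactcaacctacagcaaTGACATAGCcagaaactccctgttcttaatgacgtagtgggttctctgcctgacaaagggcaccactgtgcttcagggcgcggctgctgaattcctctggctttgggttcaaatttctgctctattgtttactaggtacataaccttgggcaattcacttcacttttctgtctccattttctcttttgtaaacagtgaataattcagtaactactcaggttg
AHR, depleted-specific peak at -58843 bp (chr7:17239660-17239959): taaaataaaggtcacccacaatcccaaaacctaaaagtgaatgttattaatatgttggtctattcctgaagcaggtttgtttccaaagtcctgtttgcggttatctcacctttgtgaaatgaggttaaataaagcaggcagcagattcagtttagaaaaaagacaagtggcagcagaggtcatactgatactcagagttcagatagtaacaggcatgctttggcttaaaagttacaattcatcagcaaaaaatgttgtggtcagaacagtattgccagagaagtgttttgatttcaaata
ARNT, common promoter peak (chr1:150876709-150877008): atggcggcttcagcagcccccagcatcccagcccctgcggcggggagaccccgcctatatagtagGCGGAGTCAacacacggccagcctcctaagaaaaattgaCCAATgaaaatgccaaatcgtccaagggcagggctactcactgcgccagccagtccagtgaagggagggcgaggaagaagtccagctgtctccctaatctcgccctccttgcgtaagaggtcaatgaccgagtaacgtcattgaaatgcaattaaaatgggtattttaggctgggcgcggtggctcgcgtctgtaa
TIPARP, upstream part of the common promoter peak (chr3:156674382-156674589): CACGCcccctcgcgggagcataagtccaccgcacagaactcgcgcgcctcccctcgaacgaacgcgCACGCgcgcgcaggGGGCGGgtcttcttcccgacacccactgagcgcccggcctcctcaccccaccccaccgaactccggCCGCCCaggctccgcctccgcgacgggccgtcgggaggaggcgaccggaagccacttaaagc

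AHR, the receptor itself, had 3 common and 3 depleted-specific peaks and no control-specific peak. All 6 were classed as intergenic and lay upstream, from -198985 to -58843 bp of the main TSS at 17298652 on chromosome 7, over a stretch of 140142 bp. The common peaks lay at -198985 bp with a score of 7.73 (19 tags, 11.4 to 29.7), at -168159 bp (chr7:17130343-17130643) with a score of 6.51 (16 tags, 9.15 to 26.0) and at -155362 bp (chr7:17143140-17143440) with a score of 6.91 (17 tags, 9.90 to 27.2). The common peaks were thus the farther group, apart from 1 depleted-specific peak that lay among them.

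That depleted-specific peak lay at -171224 bp (chr7:17127278-17127578) with a score of 5.58 (11 tags, 5.49 to 19.7), 3065 bp from a common peak. The other depleted-specific peaks lay nearer to the gene, at -92218 and -58843 bp, each with a score of 8.62 (17 tags, 9.90 to 27.2). These were the closest listed peaks to the AHR TSS, and their nearest common peaks were 63144 and 96519 bp away. A score of 8.62 was at percentile 94.1 of the 22717 depleted-specific peaks outside promoters, whereas the peak at -171224 bp was at percentile 15.3. If both libraries share a scale, the scores of 8.62 were 2.12 times the lowest score in the control-specific list and the score of 5.58 was 1.37 times it. The height of the control library at these positions is not given by the lists. Among protein-coding genes 36.5% had a depleted-specific peak, and 2.15% had at least 3 with no control-specific peak, as AHR did. The latter pattern was chosen after its values were seen.

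The intergenic class of the AHR peaks depended on the gene models. In GENCODE release 44 the AHR gene runs from 16916359 to 17346152, since 2 longer transcripts (AHR-206 and AHR-207) start upstream, and all 6 peak centres fell inside this span without touching an exon. They also fell inside a long non-coding RNA gene. The common peak at -168159 bp lay at -1697 bp from the start of AHR-206 (17132190), and the depleted-specific peak at -171224 bp lay at -4762 bp from it. No peak lay within 50 kb of the main TSS.

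ARNT encodes the nuclear partner of AHR. It had 1 peak, a common promoter peak at -259 bp of the TSS (150876599, chromosome 1, minus strand) with a score of 10.6 (26 tags, 16.98 to 38.1). This was at percentile 91.7 of the 3445 common promoter peaks. TIPARP, a mono-ADP-ribosyltransferase that acts on AHR, also had a single peak. It was a common promoter peak at -59 bp of the TSS (156674590, chromosome 3) with a score of 6.10 (15 tags, 8.40 to 24.7), at percentile 27.9 of common promoter peaks. Among protein-coding genes 14.6% had a common promoter peak, and 6.34% had one with no specific peak of any class, as these 2 genes did. The ARNT peak contained 56.1% G and C and the TIPARP peak 72.1%, against a median of 61.8% in common promoter peaks. The TIPARP peak held 45 CpG and the ARNT peak 17.

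NQO1, on the minus strand of chromosome 16, had the highest peak of the set. It was a common peak in intron 1 (chr16:69723719-69724019), centred 2691 bp downstream of the TSS (69726560), with a score of 11.8 (29 tags, 19.4 to 41.6). This was at percentile 96.1 of the 10923 common peaks outside promoters. The gene also had 2 control-specific peaks, at -1779 bp (chr16:69728189-69728489) with a score of 5.69 (14 tags, 7.65 to 23.5) and at -1360 bp (chr16:69727770-69728070) with a score of 5.29 (13 tags, 6.92 to 22.2). They lay 419 bp apart and inside the divergent long non-coding RNA gene NQO1-DT. NQO1 had no depleted-specific peak, and the nearest one in that list lay 57635 bp from these sites. The height of the depleted library at the 2 control-specific sites is not given by the lists.

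The control-specific NQO1 peak at -1779 bp was at the median score of its list (5.69), and the peak at -1360 bp was below it. Their scores stood at percentiles 41.1 and 17.2 of the 15336 control-specific peaks outside promoters. On a shared scale, they were 1.40 and 1.30 times the lowest score in the depleted-specific list. Among protein-coding genes 21.2% had a control-specific peak, and 1.07% had at least 2 with no depleted-specific peak, a pattern again chosen after its values were seen. The NQO1 sites also differed from the other members in how often their sequence recurs. Of all 31-base windows in a peak, 18.5% were found again elsewhere in hg38 for the intron peak, 29.5% for the peak at -1779 bp and 23.2% for the peak at -1360 bp. In the other 8 member peaks the share was 0%. Of control-specific peaks outside promoters, 63.3% had no such window, and the upper quartile of the share was 10.3%. For common peaks outside promoters these values were 70.3% and 3.69%. The 3 NQO1 peaks thus stood above the upper quartile of their list and class. The part of recurring sequence in the NQO1 calls was not tested.

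**Figure D2:**
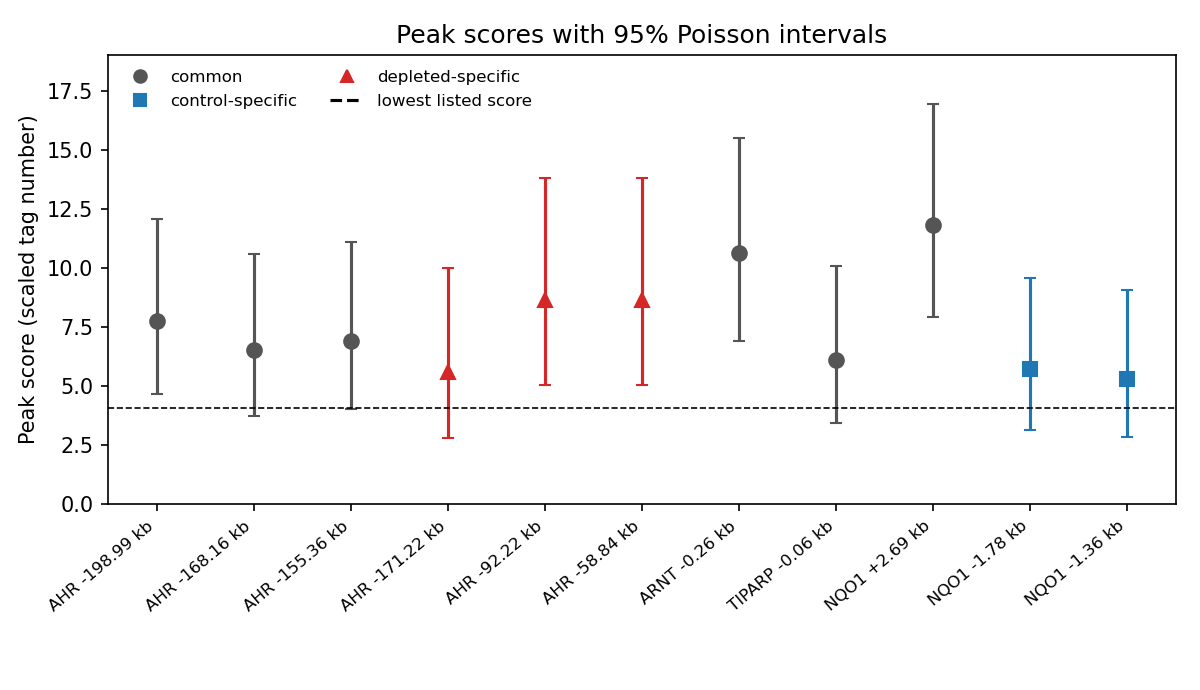
Peak score (y axis, scaled tag number) of the 11 peaks, labelled by gene and distance from the TSS; bars are 95% Poisson intervals of the tag number on the score scale, and the dashed line is the lowest listed score. The NQO1 intron peak at 11.8 and the ARNT promoter peak at 10.6 are the highest, and the intervals of these, of the farthest common AHR peak and of the AHR peaks at -92218 and -58843 bp lie above the dashed line, while those of the other peaks reach below it.

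The 4 members with no row include the classical targets of the receptor. CYP1A1 and CYP1A2 encode the inducible P450 enzymes that oxidise polycyclic hydrocarbons and aromatic amines, and lie head to head on chromosome 15. The nearest listed peak to either was the same depleted-specific peak, listed for LMAN1L with a score of 8.11 (16 tags). It lay 93219 bp upstream of the CYP1A1 TSS and 69902 bp downstream of that of CYP1A2. For AHRR, the repressor that competes for ARNT, the nearest was a common promoter peak of HRAT5 with a score of 7.32 (18 tags), 50379 bp upstream on chromosome 5. For CYP1B1, which metabolises oestrogens and hydrocarbons, it was a control-specific peak listed for RMDN2-AS1 with a score of 5.29 (13 tags), 59905 bp downstream on chromosome 2. No agonist of AHR is named in the labels, so these lists describe cells without a stated AHR ligand.

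The members lay in regions of very different peak density. Within 1 Mb of its TSS, NQO1 was surrounded by 50 common, 59 control-specific and 65 depleted-specific sites, at percentiles 93.7, 95.7 and 94.1 of protein-coding genes. CYP1B1 had 31, 28 and 60, at percentiles 86.9, 85.8 and 92.8, although no row named it. AHR had 6, 3 and 7, at percentiles 37.2, 31.9 and 21.5. The depleted-specific AHR peaks were therefore called in a sparse region, where 3 of the 7 depleted-specific peaks within 1 Mb were those listed for AHR. The control-specific NQO1 peaks were called in a dense one. AHRR had 3, 2 and 3, at percentiles 20.9, 23.4 and 9.16. The medians over all protein-coding genes were 9, 5 and 16. ARNT, with 23 common and 32 depleted-specific peaks around it, was above the median in these lists, and its 6 control-specific peaks were at percentile 54.4. TIPARP had 7, 3 and 11. The regions of CYP1A1 (11, 2 and 18) and CYP1A2 (11, 3 and 18) were above the median for common and depleted-specific peaks and below it for control-specific peaks.

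**Figure D3:**
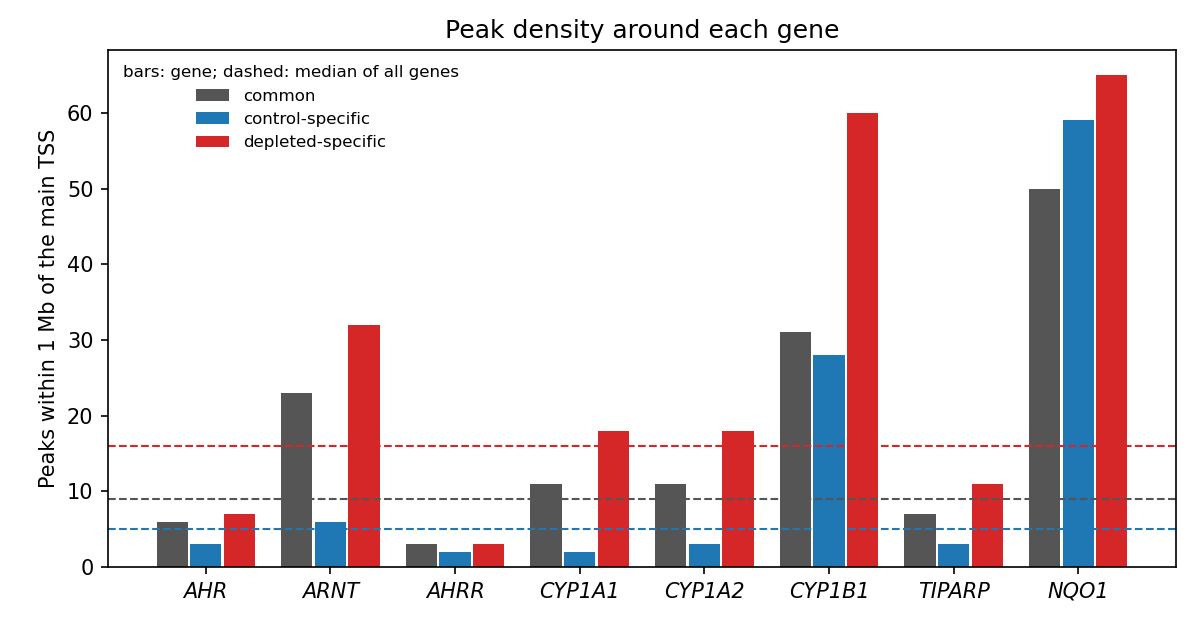
Number of listed peaks within 1 Mb of the main TSS (y axis) for each of the 8 genes, with 1 bar per list; dashed lines give the median over 20007 protein-coding genes in the same colour. NQO1, CYP1B1 and ARNT stand above all 3 medians, and AHR, AHRR and TIPARP stand below all 3.

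An XRE core was found in 2 of 11 peaks (18.2%, exact Clopper-Pearson interval 2.28% to 51.8%), against 19.8% of all listed peaks. By class, it was in 1 of 2 promoter peaks against 50.1%, and in 1 of 9 other peaks against 15.4%. The matches were in the TIPARP promoter peak, with 2, and in the farthest common AHR peak, with 1. The TIPARP peak also held 2 Sp1 motifs, which occur in 62.3% of all listed promoter peaks. No other member peak held an Sp1 motif, so the share was 1 of 11 (9.09%) against 13.2% of all listed peaks. The antioxidant response element was found in 4 of 11 peaks (36.4%, 10.9% to 69.2%), against 12.1% of all listed peaks, a value inside the interval. Its matches were in the ARNT promoter peak and in 3 of the 6 AHR peaks, among them the depleted-specific peak at -92218 bp. An NFY motif was found in 4 of 11 (36.4%) against 37.6%, and an AP-1 motif in 1 of 11 (9.09%) against 12.1%. The depleted-specific AHR peak at -58843 bp, the NQO1 intron peak and the NQO1 peak at -1779 bp held none of these letters, which says nothing of the factors themselves.

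The start sites that lacked a peak could still be described by sequence. RefSeq promoter windows of GRCh38.p14, from 250 bases before to 50 after a start site, were given for 7 of the 8 genes. An XRE core lay in the windows of AHR, CYP1A1 and NQO1 (1 match each), in 1 TIPARP window (2 matches) and in both AHRR windows (1 and 2 matches), and in none of ARNT and CYP1A2. The share over all 35116 windows was 36.5%. Sp1 motifs were most frequent at AHR and at the first AHRR window, with 4 matches each, and NQO1 had 3. Of all windows, 45% held an Sp1 motif. The AHR and NQO1 start sites, with their Sp1 matches, had no listed peak within 1000 bp in any list.

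Genes with the same numbers of peaks were sought for AHR and NQO1. By the number of promoter and other peaks in each of the 3 lists (6 numbers), 2 protein-coding genes had exactly the pattern of AHR, SEC63 on chromosome 6 and LAMB1 on chromosome 7. Their summed scores were 40.8 and 38.6, against 43.97 for AHR. For NQO1 21 genes had the same 6 numbers, of which INHA (summed score 22.4) and ABCA9 (23.6) were nearest to its 22.8. ARNT and TIPARP had too few peaks for such a comparison.

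A further list held 27 other genes of the pathway. At least 1 peak was listed for 20 of them, a promoter peak for 9, a control-specific promoter peak for 4 and a depleted-specific promoter peak for 1. The shares of protein-coding genes were 52% for any peak, 28.3% for a promoter peak, 3.69% for a control-specific and 11.8% for a depleted-specific promoter peak. The cytosolic complex, which holds AHR ready to bind ligand, had a promoter peak at each of the 3 genes reported here, a number that leaves out a listed member. HSP90AB1 had common peaks alone, among them 2 promoter peaks with scores of 7.73 and 6.51. PTGES3, the p23 co-chaperone, had a control-specific promoter peak at -75 bp with a score of 4.47 (11 tags, 5.49 to 19.7) and no other peak. That score was at percentile 0.222 of control-specific promoter peaks, near the bottom of the list. HSP90AA1 had a common promoter peak (score 5.69) and a control-specific one (score 6.10) at another start site 52542 bp away, and a depleted-specific peak outside the promoter.

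In the oxidative stress arm, NFE2L2, which drives NQO1, had a common promoter peak with a score of 7.73 (19 tags), and 1 common and 1 depleted-specific peak outside the promoter. KEAP1, its cytosolic inhibitor, had a depleted-specific promoter peak at -141 bp with a score of 6.59 (13 tags, 6.92 to 22.2) and a control-specific peak outside the promoter. MAFG had a single common peak outside the promoter. Of the 7 partners and co-regulators 1 had a promoter peak, NCOA3, and of the 11 battery and other target genes 2 did, NEDD9 and HES1. The control-specific promoter peaks of NCOA3 and NEDD9, each with a score of 8.13, lay 615 and 588 bp from common promoter peaks of the same genes. These genes lay in dense regions, with 188 and 52 control-specific peaks within 1 Mb, and for the 27 genes together 68 control-specific peaks were listed, 45 of them at this pair, and 56 depleted-specific peaks, 31 of them at this pair. Among the genes of ligand supply KYNU, an enzyme of tryptophan breakdown, had 1 common promoter peak with 7 control-specific and 11 depleted-specific peaks elsewhere. IDO1 and TDO2, which open the same route, had no row. UGT1A1, UGT1A6, SERPINB2, EP300 and RELA had no row either.

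**Figure D4:**
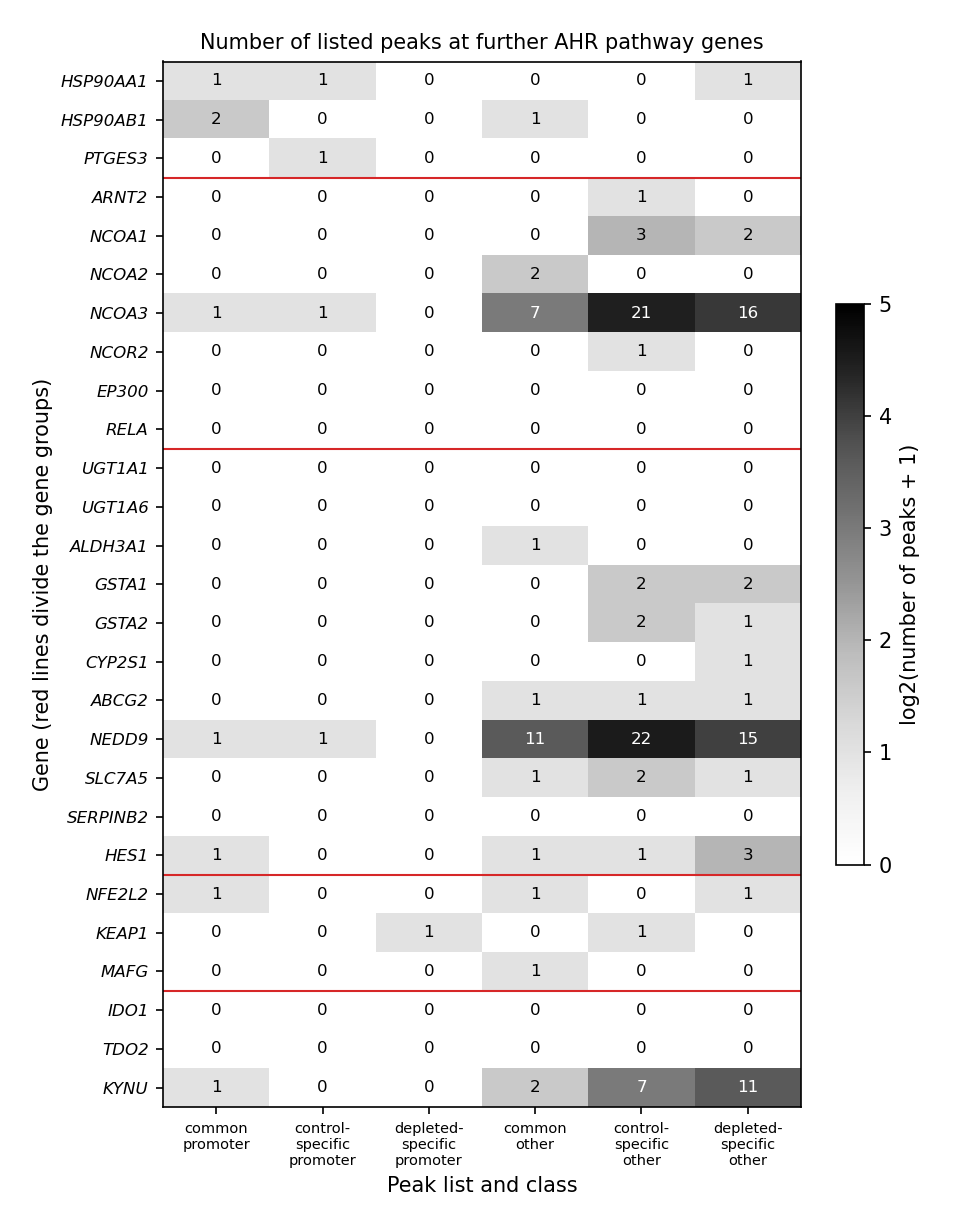
Number of listed peaks at the 27 further AHR pathway genes (rows, red lines divide cytosolic complex, partners and co-regulators, battery and other targets, oxidative stress arm and ligand supply) by list and class (columns); shading is log2(number + 1). A depleted-specific promoter peak is at KEAP1, control-specific promoter peaks are at HSP90AA1, PTGES3, NCOA3 and NEDD9, and NCOA3 and NEDD9 hold most specific peaks.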

How the data were processed

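FAIRE-seq was measured in HepG2 cells, 1 control and 1 NR2E3-depleted library, grouped by the treatment in the labels. Per the study's methods and the submitters' processing notes, the authors used Trimmomatic 0.39 for trimming and Bowtie2 2.4.5 for alignment (hg38), and HOMER called and annotated the peaks. They deposited a peak score, a scaled tag number whose scale is not stated, and a signed distance to the nearest TSS. Input DNA is named in the protocol, but its use in calling is not stated, nor is the rule that separated the 3 lists.

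Peaks of the 8 genes were taken by the listed gene name, and promoter means the class HOMER assigned. The members and lists were chosen with earlier results of these data known. The genes named were all members, listed further pathway genes with a specific promoter peak, and the 2 genes nearest in peak numbers to each member with at least 3 peaks. One listed gene and some peak sequences are not reported here. Other named genes were chosen after their values were seen. Scores under 10 were whole multiples of the step for 100% of peaks, within the rounding of 0.005. Percentiles compare a score with its own list and class. Protein-coding genes and main (MANE) TSSs came from GENCODE release 44, and deposited distances matched them for all 11 peaks. Motifs were searched on both strands from peak start to end. Recurrence counted 31-base windows over chromosomes 1 to 22, X and Y. Alternatives changed gene assignment, score threshold, promoter width, treatment of neighbouring peaks and the motif. Scripts were tested on simulated data. Python 3.11.15, pandas 2.3.3, scipy 1.17.1 and pysam 0.24.0 were used.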

Additional observations from a re-analysis of the deposited data

How the results depend on the processing

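Taking peaks inside the GENCODE gene spans or 50 kb to either side, whatever gene was listed, gave 5 control-specific, 7 depleted-specific and 12 common peaks for the 8 genes, in place of 2, 3 and 6, as the wider definition adds peaks listed for neighbours. The control-specific count fell to 1 with scores at or above each list's median, to 0 with a minimum of 15 tags, and to 0 without peaks that hold a recurring 31-base window, a setting chosen after the data were seen. The depleted-specific count was 2, 2 and 3 and the common count 5, 6 and 5 under these settings, in this order. With promoters taken as 3000 bp around a TSS, 1 member (NQO1) had a control-specific promoter peak, in place of 0. The share of peaks with an XRE core was 0% with the longer form TNGCGTG. The other settings left each value within its interval or within 1.5 times its count. No member peak rested on more than 29 tags, which limits every statement on a single site. Replicates could not be left out. No paired analysis was possible because there is a single library on either side.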

Other observations

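Several peaks inside the members or within 50 kb of their spans were listed for a neighbouring gene. A control-specific peak in the last exon of NQO1, in its 3′ untranslated region, was listed for SNORD13H, on chromosome 16 from 69709590 to 69709890, with a score of 7.73 (19 tags, 11.4 to 29.7). It was higher than both control-specific peaks listed for NQO1 itself, and its interval overlapped theirs. Within 50 kb of the NQO1 span there were 5 control-specific and no depleted-specific peaks. This contrast depended on the window, since 8 control-specific and 5 depleted-specific peaks lay within 100 kb of the NQO1 TSS. The share of all genes with such counts was not computed. The NOB1 and WWP2 promoters nearby had common peaks with scores of 6.91 and 4.88.

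Inside the longer GENCODE span of AHR, 2 peaks were listed for AGR3. A common peak had a score of 6.51 (16 tags) and a depleted-specific peak had a score of 8.62 (17 tags), at 308593 and 277305 bp upstream of the main AHR TSS. The count inside the span or within 50 kb of it was then 4 common, 0 control-specific and 4 depleted-specific peaks. Outside the CYP1B1 gene, a depleted-specific peak with a score of 5.58 (11 tags) and a common peak with a score of 5.29 (13 tags) lay in an intron of the antisense gene CYP1B1-AS1, 71354 and 72210 bp upstream of the main TSS. Outside the ARNT gene, the neighbouring SETDB1 promoter had a depleted-specific peak with a score of 7.60 (15 tags, 8.40 to 24.7), 49628 bp upstream of ARNT.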
